A study of Mus musculus with 39 samples.

Results

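The dense zone and the light zone of sucrose gradients loaded with mouse liver homogenate were compared for the mRNAs and noncoding RNAs they held, gene by gene and then by gene class. The light zone was fractions 4 to 7, and the dense zone was fractions 16 to 19. A gene entered when it was in the tables of both gradients and had a mean of at least 1 TPM (the share of a library's transcripts that a gene holds, corrected for transcript length) over these 16 libraries, which 11843 of 13230 shared genes did. Livers came from wild type female FVB mice, 1 mouse and 1 gradient per replicate, so n = 2 for each zone. The study homogenized fresh liver with beads in buffered sucrose without detergent, removed nuclei by centrifugation, layered the supernatant on a gradient of 10-50% sucrose and separated it by velocity, then sequenced each fraction as a separate library with ribosomal RNA depleted. All groups share genotype, sex, strain and treatment, and only the position in the gradient differs between the zones. The tissue held no perturbed control, and both zones of a gradient came from the same animal.

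In velocity sedimentation small and light particles stay near the top and large or dense ones travel further. An mRNA therefore travels with what it is bound to: free protein, a ribosomal subunit, a string of ribosomes, a membrane vesicle, a mitochondrion or a fragment of the cytoskeleton. In hepatocytes, mRNAs of secreted and membrane proteins are translated on the endoplasmic reticulum (ER), whose membranes survive a preparation without detergent, while mRNAs of cytosolic enzymes are translated on ribosomes of the cytosol. Position in the gradient does not separate these causes from one another, and none of them was tested here.

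The 16 libraries summed to between 998099 and 999183 TPM, so every value is a share of its own library and depth cannot be read from it. Between 11770 and 12558 genes exceeded 1 TPM in a light library and between 10548 and 10880 in a dense one. The 50 most abundant genes took 29.9% to 50.9% of TPM in the light zone and 31.1% to 39% in the dense zone. Fraction 4 stood apart in both gradients, because Rpph1, the RNA subunit of RNase P, alone held 249286 TPM there in gradient 1 and 134178 TPM in gradient 2. Equal masses of RNA went into each library, so a higher share in the dense zone does not mean more molecules there.

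The zones differed for most genes. The dense zone was higher for 2453 genes (20.7% of those tested) and lower for 4570 (38.6%), by limma on the zone means with Benjamini-Hochberg adjusted p under 0.05, and 4820 genes passed in neither direction. On the log2(TPM + 1) scale the median gene changed by -0.46, with -0.43 in gradient 1 and -0.42 in gradient 2. Of the genes called, 34.9% were higher, but 50.7% were higher after quantile normalization, which called 28.4% of genes higher and 27.6% lower and moved the median to -0.074. Raising the minimum mean TPM to 10 left 7163 genes, of which 64.3% were called, 2101 higher and 2503 lower. Because both zones of a gradient share a mouse, the fit with the gradient as a block is given where it matters, and it called 27.3% of genes higher and 47.4% lower. Changes of a class are therefore best read against the median of all genes. Without the light zone of gradient 1 the counts were 1183 higher and 2383 lower, and without that of gradient 2 they were 1168 and 2766. With fraction 4 left out of the light zone they were 2277 and 4734. Taken library by library, all 8 dense libraries lay above all 8 light ones for 1986 genes (16.8%), and below them for 3447 (29.1%).

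Both gradients gave a change of the same direction for 92.2% of genes. Among the genes called, 699 were at least 4-fold higher and 1177 at least 4-fold lower. Beyond the single largest changes, the classes behind the difference are described here through 50 gene lists of complexes, pathways and RNA classes that together held 2354 of the tested genes.

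**Figure D1:**
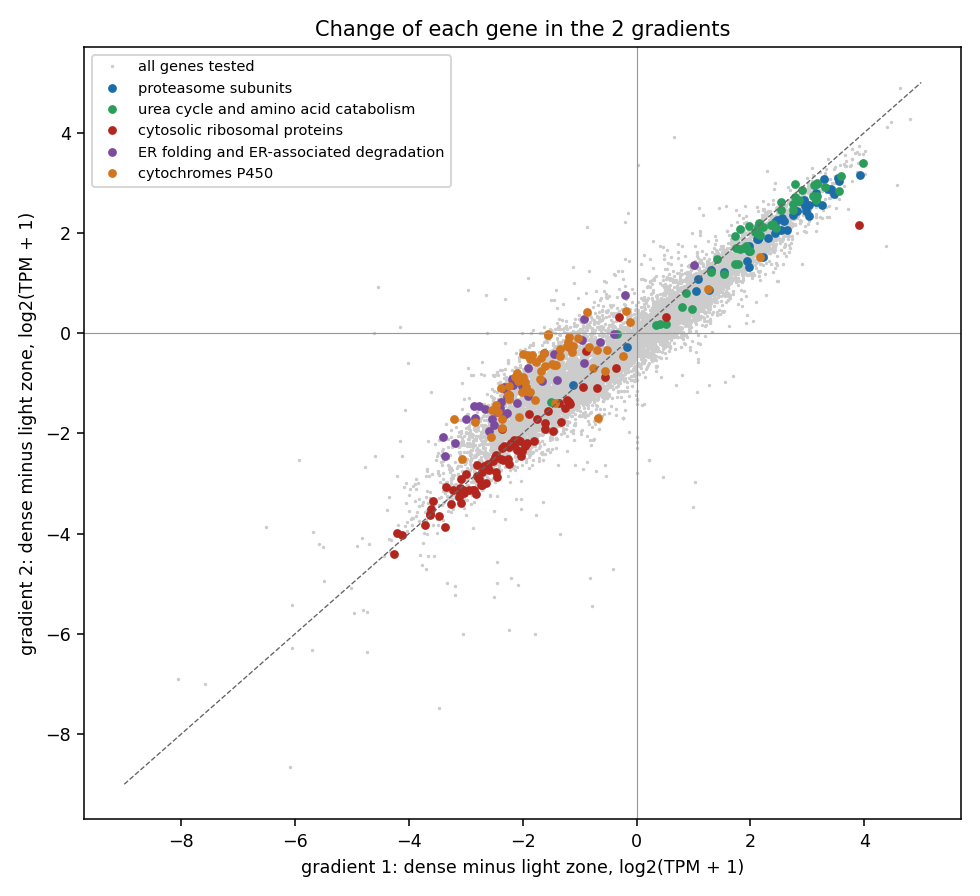
Each point is a gene, with its change between the dense and the light zone (log2(TPM + 1)) in gradient 1 on the horizontal axis and in gradient 2 on the vertical axis; the dashed line marks equal change. Proteasome and urea cycle genes lie at upper right, ribosomal protein genes at lower left on the line, and ER folding and cytochrome P450 genes mostly above the line, with a smaller fall in gradient 2.

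Cytosolic ribosomal protein mRNAs had the lowest median change of the lists of coding genes. These genes encode the proteins of both ribosomal subunits, and many of their mRNAs begin with a terminal oligopyrimidine (TOP) tract, a run of C and T at the start of the transcript that places translation under nutrient control. Of 81 tested, 75 were lower in the dense zone and 1 was higher, and the median change was -2.45 (-2.46 in gradient 1 and -2.54 in gradient 2). The class took 12.7% and 14.4% of TPM in the light zone of gradients 1 and 2, against 2.23% and 2.44% in the dense zone. Rps18, a protein of the small subunit chosen after its values were seen, had 2919 and 3421 TPM in the light zone and 395 and 392 TPM in the dense zone. Every dense library lay below every light one, and the change was -3.0 ± 0.23 (SE; n = 2 gradients per zone; limma adjusted p = 0.000958). In the profile over fractions 4 to 19 the class peaked at fraction 6 in both gradients, 2.12 and 1.96 log2 units above its mean, and declined to its lowest level at fraction 17 in gradient 1 and fraction 19 in gradient 2.

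The windows around the annotated transcription starts of a few members show what the tract looks like, because it is the sequence feature the class is known for. Each window holds 15 bases before the start and 15 from the start on, from RefSeq on GRCm38.p6, 5′ to 3′ on the gene's strand. Capitals mark the longest run of at least 8 pyrimidines. Rack1, a scaffold protein of the small ribosomal subunit that is not itself counted in the class, has such a run. Rps2 has no run of at least 8 within its window, and Psme1, a proteasome activator subunit, is given for contrast.
Rps18 (chr17:33955651-33955680, minus strand): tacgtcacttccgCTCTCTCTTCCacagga
Rpl28 (chr7:4792950-4792979, plus strand): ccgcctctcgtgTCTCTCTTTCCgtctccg
Rps27 (chr3:90213634-90213663, minus strand): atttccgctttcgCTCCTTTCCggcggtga
Rpl35 (chr2:39005117-39005146, minus strand): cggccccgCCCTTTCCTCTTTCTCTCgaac
Rack1 (chr11:48800345-48800374, plus strand): cggaggccgCTCTTTCTTTTTCTCCacagg
Rps2 (chr17:24720048-24720077, plus strand): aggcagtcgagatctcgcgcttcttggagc
Psme1 (chr14:55578479-55578508, plus strand): ggccgtgcaggtttcgagctgtgctttcgc

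A run of at least 8 C or T on the gene's strand was present for 27 of 59 ribosomal protein genes with an annotated start (45.8%). It was present for 12.0% of 32851 annotated starts of the promoter table, 14.7% of 9008 tested genes and 5 of 36 proteasome genes. Within the class a run of at least 8 bases did not go with the size of the change. The median was -2.61 for the 27 with such a run and -2.53 for the 32 without. Genes with a shorter run, such as Rps2, count as without, so the split does not separate members with and without a TOP tract. Outside the class the 1295 genes with a run had a median of -0.49 and the 7654 without had -0.40. Rps27 (run of 9 bases) changed by -3.56 and Rps2 (longest run of 6) by -3.77. Annotated starts can lie several bases from the start in use, and a missing run says only that these letters are not in the window.

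The exceptions within the class, chosen after the values were seen, included less abundant paralogs. Rps4l, a paralog of Rps4x, had 1.26 and 1.49 TPM in the light zone and 32.7 and 10.1 TPM in the dense zone, the only member that was higher. Rpl19 (-0.53), Rpl30 (0.01), Rpl34 (-0.72), Rpl36al (0.42) and Rps27l (-0.62) passed in neither direction. Of 17 genes outside the class whose mRNAs are textbook TOP mRNAs, 13 were lower, none was higher and the median was -1.76. Eef1a1, the factor that brings aminoacyl-tRNA to the ribosome, went from 11503 and 14196 TPM in the light zone to 1628 and 2300 TPM in the dense zone, -2.72 ± 0.33 (limma adjusted p = 0.00177), with no overlap between libraries. Tpt1, Pabpc1, Eef1b2 and Rack1 changed by -3.84, -3.36, -3.06 and -2.16, all called.

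Other parts of the translation machinery were divided between the zones. Aminoacyl-tRNA synthetases, which charge tRNAs with amino acids, were on the side opposite to ribosomal proteins: 20 of 23 were higher, none was lower, and the median change was 2.25. Aars, which charges alanine, had 50.2 and 51.3 TPM in the light zone and 358 and 286 TPM in the dense zone, and the lowest dense library (258 TPM) lay above the highest light one (86.1 TPM). Its change was 2.63 ± 0.22 (limma adjusted p = 0.000960). Translation factors were higher for 20 of 60 and lower for 21 (33.3% and 35.0%, against 20.7% and 38.6% of all genes). All 5 subunits of eIF2B, the exchange factor that recharges eIF2, were higher (median 1.77), 6 of 13 eIF3 subunits were higher and 4 lower, and 4 of 5 elongation factors were lower with none higher (median -2.16). Eif4a1, the helicase of the cap-binding complex, was higher by 1.62 ± 0.21 (210 and 220 TPM in the light zone, 709 and 620 TPM in the dense zone; limma adjusted p = 0.00213).

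**Figure D2:**
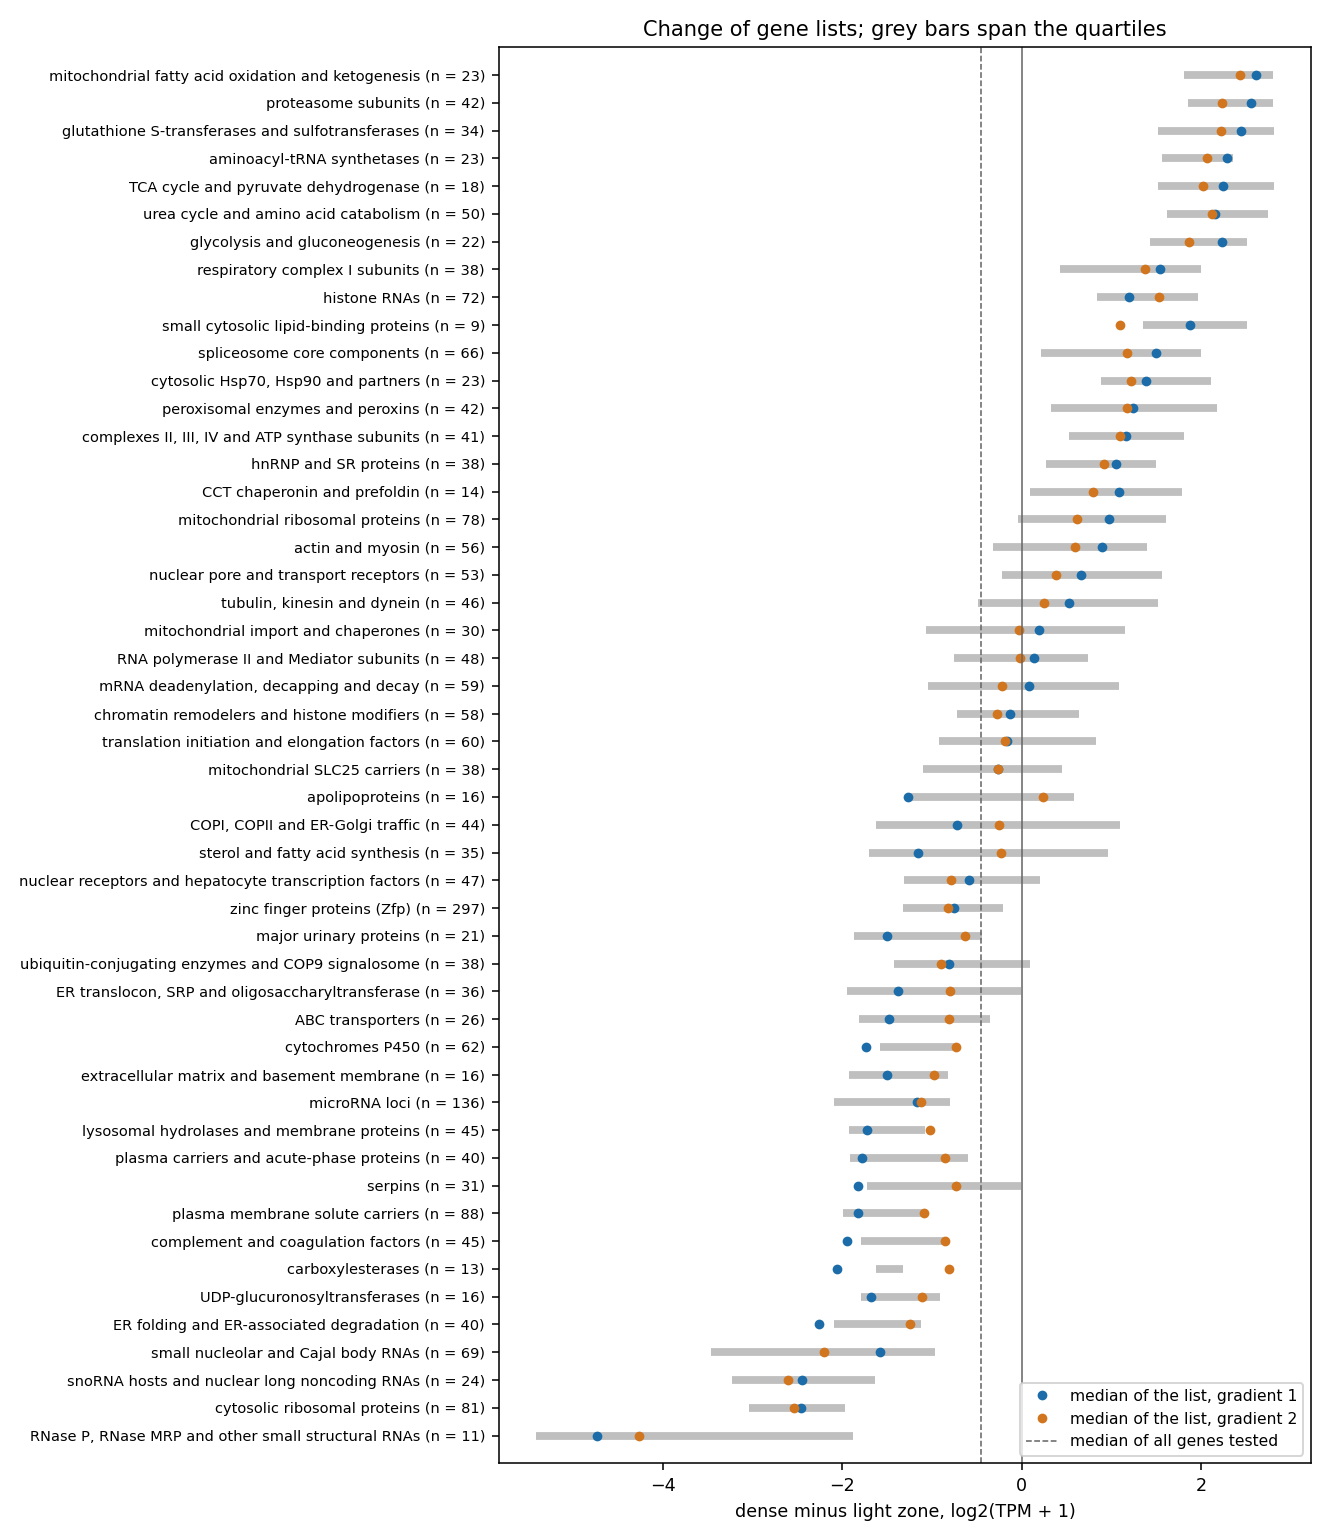
Median change of each of the 50 gene lists between the dense and the light zone (log2(TPM + 1)), with blue points for gradient 1, orange points for gradient 2 and grey bars from the lower to the upper quartile of the change averaged over gradients; the number of tested genes is in brackets and the dashed line is the median of all genes, -0.46. Fatty acid oxidation, the proteasome and the list of glutathione S-transferases and sulfotransferases are at the top (medians of 2.52, 2.35 and 2.29), and small structural RNAs and ribosomal proteins are at the bottom (-4.83 and -2.45).

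Secreted plasma proteins, the main products that hepatocytes export, were more often lower than higher in the dense zone. Across 5 lists of them, 77 of 153 tested genes were lower (50.3%, against 38.6% of all genes), 7 were higher and 69 passed in neither direction, and the median change was -1.29. Complement and coagulation factors were lower for 30 of 45 and higher for none. C3, the central complement component, had 1891 and 1765 TPM in the light zone and 301 and 561 TPM in the dense zone, -2.15 ± 0.34 (limma adjusted p = 0.00374), with no overlap between libraries. Plasma carriers and acute-phase proteins were lower for 22 of 40. Alb, which encodes serum albumin, had 29607 and 17902 TPM in the light zone and 2897 and 5063 TPM in the dense zone. Every dense library lay below every light one for Alb (6231 TPM at most against 10599 TPM at least), and the change was -2.59 ± 0.45 (limma adjusted p = 0.00481).

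Serpins, most of them secreted protease inhibitors, were lower for 18 of 31 and higher for 3, or 14 and 7 after quantile normalization. Serpina1b, an antitrypsin, went from 11192 and 10635 TPM to 697 and 1138 TPM, -3.61 ± 0.33 (limma adjusted p = 0.00107). The 5 clade B serpins, which lack a classical signal peptide and mostly stay in the cytosol, held 2 of the higher members and no lower one (median 0.71), while serpins of the other clades held 18 lower members of 26 (median -1.48). Serpinb1a was higher by 2.05 and Serpinb8 by 0.93. The third higher member, Serpina3i, reached only 2.10 and 1.55 TPM in the dense zone. Genes of the Serpina1 and Serpina3 clusters are near-identical, so their reads could have been divided between copies by the authors' quantification, and the same holds for the Mup, Cyp2, Ugt, Gst, Sult and histone families.

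Apolipoproteins, the protein part of lipoprotein particles, had few calls. Of 16 tested, 4 were lower and 2 were higher, both smaller shares than the 38.6% and 20.7% of all genes, and 10 passed in neither direction. The median was -1.26 in gradient 1 but 0.24 in gradient 2. Apob, the very long scaffold of VLDL, had 1260 and 1262 TPM in the light zone and 75.2 and 120 TPM in the dense zone, which gave -3.72 ± 0.28 (limma adjusted p = 0.000949). Its highest dense library (134 TPM) was far below its lowest light library (806 TPM). Apoa2, a small protein of HDL, moved the other way, from 5680 and 4983 TPM to 9349 and 17141 TPM, 1.25 ± 0.40 (limma adjusted p = 0.0386), and its libraries did not overlap either. Apoa1 had 2180 and 1817 TPM in the light zone and 890 and 2732 TPM in the dense zone, so it was lower in gradient 1 and higher in gradient 2 and was not called.

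Major urinary proteins, male-biased pheromone carriers that liver secretes, were called lower for 3 of 21 and higher for 1, 14.3% and 4.76%, against 38.6% and 20.7% of all genes, with 13 lower when the gradient was fitted as a block, which called 47.4% of all genes lower. Mup6 had 89.4 and 192 TPM in the light zone and 5.16 and 21.4 TPM in the dense zone (-3.49 ± 0.66; limma adjusted p = 0.00675). Mup14 had 46.8 and 92.1 TPM in the light zone and 290 and 545 TPM in the dense zone (2.58 ± 0.43; limma adjusted p = 0.00443), with overlapping libraries. Its light level in gradient 1 includes fraction 4 at 0.0733 TPM, and with fractions 5 to 7 as the light zone the change of Mup14 was 1.53 (limma adjusted p = 0.0163). The summed share of the family differed more between gradients than between zones, at 1.39% and 4.08% of TPM in the light zone and 0.609% and 3.89% in the dense zone.

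Membrane proteins and residents of the ER and lysosome followed the secreted proteins. Over 10 lists, 241 of 386 tested genes were lower and 25 were higher, with a median of -1.36. ER folding and ER-associated degradation had no higher member and 30 lower of 40 (median -1.73). P4hb, protein disulfide isomerase, had 537 and 500 TPM in the light zone and 50.2 and 119 TPM in the dense zone. The change was -2.73 ± 0.41 (limma adjusted p = 0.00319), and no libraries overlapped. Lysosomal hydrolases and membrane proteins were lower for 36 of 45 (23 after quantile normalization) and higher for none, with Lamp1, a coat glycoprotein of the lysosomal membrane, at -1.70 ± 0.46 (limma adjusted p = 0.0217). Solute carriers of the plasma membrane were lower for 68 of 88 (42 after quantile normalization) and higher for none. Slc38a4, an amino acid transporter of hepatocytes, went from 380 and 486 TPM to 67.5 and 160 TPM, -2.04 ± 0.42 (limma adjusted p = 0.00904).

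The drug-metabolizing enzymes of the ER, membrane-anchored or in its lumen, had medians below that of all genes, but fewer calls in the fit that ignored the pairing of zones. Cytochromes P450 were lower for 25 of 62 (40.3%, near the 38.6% of all genes), or for 48 with the gradient as a block, which called 47.4% of all genes lower, and the median was -1.19. Cyp2e1, which oxidizes ethanol, had 3874 and 4533 TPM in the light zone and 420 and 1390 TPM in the dense zone (-2.45 ± 0.56; limma adjusted p = 0.0126). The 2 higher members of this list, Cyb5a (1.07) and Cyb5r3 (1.84), encode the cytochrome b5 electron donor and its reductase, which attach to membranes without a classical signal peptide. Carboxylesterases were lower for 7 of 13, or 12 with the block. After quantile normalization 4 of the 13 were lower, near the 27.6% of all genes lower on that scale. UDP-glucuronosyltransferases, which conjugate bilirubin and drugs, were lower for 10 of 16, or 6 after quantile normalization. Neither family had a higher member. Ces3a changed by -1.71 ± 0.54 (limma adjusted p = 0.0371) and Ugt2b34 by -2.94 ± 0.41 (limma adjusted p = 0.00256). Extracellular matrix genes were lower for 12 of 16 (6 after quantile normalization), with Fn1 (fibronectin) at 257 and 214 TPM in the light zone and 36.1 and 51.1 TPM in the dense zone (-2.42 ± 0.25; limma adjusted p = 0.00133), and only Col15a1 was higher.

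ABC transporters were lower for 15 of 26 and higher for 4 (57.7% and 15.4%, against 38.6% and 20.7% of all genes). Abcb4, the phospholipid exporter of the bile canaliculus, changed by -1.95 ± 0.26 (limma adjusted p = 0.00231). The higher ones were Abcg5 (0.98) and Abcg8 (0.74 ± 0.20; limma adjusted p = 0.0228), which pair to form the sterol exporter, Abcg2 (1.46), and Abcb8 (1.30), which is mitochondrial. The 3 ABCG proteins carry their ATP-binding domain at the N terminus, ahead of the first membrane segment.

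Traffic between ER and Golgi divided by the kind of protein. COPI coat subunits, which form a cytosolic coat, were higher for 6 of 9 and lower for 1 (median 1.44), and the COPII group for 7 of 12 and lower for 1 (median 1.08). The p24 proteins and cargo receptors, which span the membrane, were lower for 16 of 18 and higher for none (median -1.78). Cope, a COPI subunit, had 54 and 48.5 TPM in the light zone and 615 and 436 TPM in the dense zone, 3.31 ± 0.25 (limma adjusted p = 0.000949). Tmed2, a p24 protein, had 271 and 300 TPM in the light zone and 49.1 and 89.3 TPM in the dense zone, -2.09 ± 0.32 (limma adjusted p = 0.00332). Neither gene had overlapping libraries. In the list of the translocon, signal recognition particle (SRP) and oligosaccharyltransferase, the 8 SRP proteins were 3 higher and 2 lower, and the other 28 were 1 higher and 16 lower, among them Ssr3 (-2.67 ± 0.42; limma adjusted p = 0.00358). The 1 higher member outside SRP was Sec61b (0.93), a tail-anchored subunit of the channel, while the channel itself, Sec61a1, changed by -2.58. These divisions of the lists were made after the values were seen and are descriptions.

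The lipid synthesis list held 11 higher and 10 lower genes of 35 (31.4% and 28.6%, against 20.7% and 38.6% of all genes). With the gradient as a block 17 were lower, near the 47.4% of all genes lower in that fit. Scd1 and the 4 fatty acid elongases of the list, all of them multispanning ER enzymes, were lower (5 of 5, median -2.62), while soluble enzymes of the cytosol were higher for 8 of 11 and lower for none (median 1.02). Scd1, the stearoyl-CoA desaturase, had 2329 and 1528 TPM in the light zone and 356 and 400 TPM in the dense zone, -2.32 ± 0.28 (limma adjusted p = 0.00185). Fdps, which makes farnesyl diphosphate, had 131 and 160 TPM in the light zone and 619 and 896 TPM in the dense zone, 2.35 ± 0.27 (limma adjusted p = 0.00157). Sterol enzymes of the ER membrane were lower for 4 of 13 and higher for 2, or 9 and 3 with the block. Their median was -1.20.

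Across 5 lists of metabolic enzymes and lipid carriers, 112 of 150 genes were higher in the dense zone (74.7%, against 20.7% of all genes) and 12 were lower (8.0%, against 38.6%), or 20 lower with the gradient as a block. Most proteins of these lists are cytosolic, but the lists also hold ER enzymes of lipid synthesis, which supplied many of the lower calls, and mitochondrial enzymes of the urea cycle and amino acid catabolism. All 22 tested genes of glycolysis and gluconeogenesis were higher (median 2.09), as were 44 of 50 of the urea cycle and amino acid catabolism (median 2.15), 27 of 34 glutathione S-transferases and sulfotransferases (median 2.29) and 8 of 9 small lipid-binding proteins (median 1.38). Fabp1, the fatty acid carrier of the hepatocyte cytosol, had 4125 and 4052 TPM in the light zone and 36801 and 27301 TPM in the dense zone. Its lowest dense library (21093 TPM) exceeded its highest light library (9192 TPM), and the change was 2.95 ± 0.35 (limma adjusted p = 0.00169). Ass1, which joins citrulline to aspartate in the urea cycle, went from 2357 and 2964 TPM to 8302 and 12510 TPM (1.95 ± 0.34; limma adjusted p = 0.00527). Gstp3 changed by 1.67 ± 0.31 (limma adjusted p = 0.00620). The 5 lists together, lipid synthesis included, held 4.36% and 4.76% of TPM in the light zone and 18.5% and 17.6% in the dense zone. The member of the urea cycle and amino acid list that was lower was Ahcy (-1.43).

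**Figure D3:**
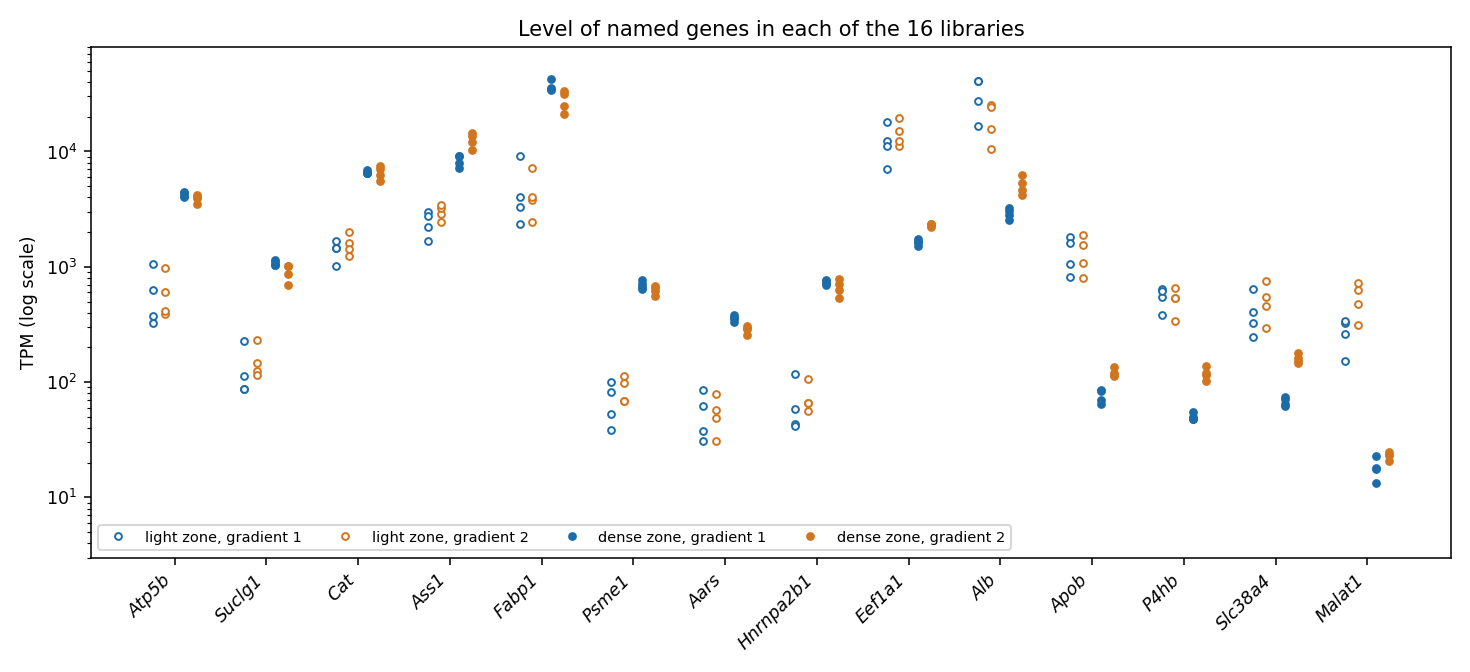
TPM (log scale) of named genes in each of the 16 libraries; open circles are light-zone and filled circles dense-zone libraries, blue for gradient 1 and orange for gradient 2. Fabp1, Ass1, Cat, Atp5b, Suclg1, Psme1, Aars and Hnrnpa2b1 have all filled circles above the open ones, and Alb, Apob, P4hb, Slc38a4, Eef1a1 and Malat1 have them below.

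Mitochondrial genes were higher in 148 of 265 cases and lower in 36, unevenly between functions. Matrix enzymes led. For fatty acid oxidation and ketogenesis 22 of 23 were higher and none was lower (median 2.52), and for the TCA cycle and pyruvate dehydrogenase 16 of 18 were higher and none was lower (median 2.18). Suclg1, a subunit of succinyl-CoA ligase, had 118 and 149 TPM in the light zone and 1082 and 887 TPM in the dense zone (2.88 ± 0.24; limma adjusted p = 0.000964). The fatty acid oxidation gene that was not called was Cpt1a (-0.01), the carnitine palmitoyltransferase of the outer membrane, while Cpt2 of the inner membrane was higher by 2.76.

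Respiratory chain subunits were higher for 25 of 38 in complex I, with 1 lower. In complexes II to V they were higher for 25 of 41 and lower for 4, or 6 lower after quantile normalization. The 7 catalytic core subunits of complex I encoded in the nucleus were all higher (median 2.32), and the 31 accessory subunits were higher for 18 and lower for 1 (median 1.25). Ndufa4, counted in this list although its protein is now assigned to complex IV, had 212 and 258 TPM in the light zone and 1042 and 1303 TPM in the dense zone (2.31 ± 0.24; limma adjusted p = 0.00132), and Ndufa6, the lower one, changed by -1.48. Atp5b, the catalytic subunit of ATP synthase, had 532 and 554 TPM in the light zone and 4214 and 3932 TPM in the dense zone, 2.90 ± 0.23 (limma adjusted p = 0.000960). Its libraries did not overlap, with 1060 TPM as the highest light value and 3515 TPM as the lowest dense one. Over fractions 4 to 19 the complex I list was highest neither in the light nor in the dense zone but at fraction 11 in both gradients, 1.02 and 1.05 log2 units above its mean, and fell back to -0.08 and -0.41 at fraction 19. The lists of complexes II to V and of mitochondrial ribosomal proteins also peaked at fraction 11 in both gradients. Mitochondrial import peaked at fraction 10 and small lipid-binding proteins at fraction 13, again in both gradients. The contrast of zones alone does not show these middle peaks.

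Mitochondrial ribosomal proteins, unlike those of the cytosol, were higher for 42 of 78 and lower for 9 (median 0.77), with Mrpl24 at 44.1 and 45.4 TPM in the light zone and 332 and 269 TPM in the dense zone (2.71 ± 0.21; limma adjusted p = 0.000960). The import machinery was higher for 11 of 30 (36.7%, against 20.7% of all genes) and lower for 10 (33.3%, against 38.6%), with its median 0.54 above that of all genes. Hspd1, the matrix chaperonin, was higher by 0.88 ± 0.27 (limma adjusted p = 0.0346), although it was not called after quantile normalization (adjusted p = 0.151). Timm8b, a small chaperone of the intermembrane space, was lower by -2.06 ± 0.25 (limma adjusted p = 0.00183), and of 9 such small subunits of the intermembrane space and outer membrane 5 were lower and 1 was higher. Carriers of the SLC25 family, which span the inner membrane and carry no N-terminal presequence in most cases, were lower for 12 of 38 and higher for 8 (31.6% and 21.1%, close to the shares of all genes). Slc25a39 had 872 and 883 TPM in the light zone and 175 and 178 TPM in the dense zone (-2.31 ± 0.20; limma adjusted p = 0.000990). Slc25a5, the ADP/ATP carrier, had 353 and 323 TPM and then 1312 and 1473 TPM (2.04 ± 0.22; limma adjusted p = 0.00142). Peroxisomal genes were higher for 25 of 42 and lower for 2, with Cat (catalase) rising from 1377 and 1545 TPM to 6604 and 6547 TPM (2.17 ± 0.26; limma adjusted p = 0.00180).

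Lists of cytosolic protein quality control were higher for the proteasome and most chaperones, and lower for ubiquitin-conjugating enzymes. The proteasome, which degrades ubiquitinated proteins, was higher for 39 of 42 subunits and lower for 1 (median 2.35). All 17 subunits of the 20S core particle and 20 of 21 of the 19S regulatory particle were higher, with medians of 2.55 and 2.21. Psme1, whose start is printed above, had 64.1 and 84.7 TPM in the light zone and 694 and 626 TPM in the dense zone. No libraries overlapped (112 TPM at most against 557 TPM at least), and the change was 3.14 ± 0.23 (limma adjusted p = 0.000949). The 4 subunits whose RNAs the study also imaged changed by 2.55 (Psma1), 2.00 (Psmb1), 2.34 (Psmc5) and 2.80 (Adrm1), all called and all without overlap. The lower member was Psme4, a nuclear activator, at -1.07, and Psme3, also nuclear, had -0.22 and was not called.

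Chaperonin and heat shock lists were less uniform. CCT subunits, which fold actin and tubulin, were higher for 6 of 8, and prefoldin for 2 of 6 with 1 lower. Cct5 had 169 and 167 TPM in the light zone and 416 and 370 TPM in the dense zone (1.22 ± 0.20; limma adjusted p = 0.00438). Cytosolic Hsp70, Hsp90 and their partners were higher for 15 of 23, with Hsp90ab1 at 0.82 ± 0.24 (limma adjusted p = 0.0277) and overlapping libraries. The lower member was Bag1, a nucleotide exchange factor, with 310 and 384 TPM in the light zone and 25 and 26.2 TPM in the dense zone (-3.70 ± 0.22; limma adjusted p = 0.000949). Ubiquitin-conjugating enzymes, small single-domain proteins, were lower for 19 of 29 and higher for 1 (median -1.0), whereas the COP9 signalosome, related in its architecture to the proteasome lid, was higher for 5 of 9 and lower for 1 (median 1.21). Ube2d3 changed by -0.83 ± 0.23 (limma adjusted p = 0.0242) with overlapping libraries, and Cops6 by 1.91 ± 0.26 (limma adjusted p = 0.00252) without overlap.

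Over the lists of nuclear proteins, counted together with factors of mRNA decay, 21.2% of genes were higher and 32.8% lower, near the 20.7% and 38.6% of all genes. After quantile normalization 197 of the 665 were higher and 141 lower, on a scale where 28.4% and 27.6% of all genes were. Single lists differed. Spliceosome core components were higher for 44 of 66 and lower for 5, or 2 after quantile normalization (median 1.34), and hnRNP and SR proteins, which bind pre-mRNA, for 22 of 38 and lower for 3 (median 1.01). Snrpb had 39.8 and 39.7 TPM in the light zone and 469 and 348 TPM in the dense zone (3.31 ± 0.23; limma adjusted p = 0.000949). Hnrnpa2b1 had 59.4 and 71.5 TPM in the light zone and 736 and 657 TPM in the dense zone (3.40 ± 0.22; limma adjusted p = 0.000949). Nuclear pore and transport genes were higher for 21 of 53 and lower for 5, or 2 after quantile normalization, with Sec13, shared between the pore and COPII, at 3.10 ± 0.21 (limma adjusted p = 0.000949).

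Zinc finger genes of the Zfp series were lower for 145 of 297 (48.8%, against 38.6% of all genes) and higher for 6, or 186 lower and 16 higher with the block. After quantile normalization 85 were lower, near the 27.6% of all genes lower on that scale, and 25 were higher. The median of -0.82 was 0.37 below that of all genes, and after quantile normalization 0.21 below. Zfp91 had 134 and 124 TPM in the light zone and 17.3 and 15.7 TPM in the dense zone (-2.89 ± 0.21; limma adjusted p = 0.000949). Nuclear receptors and hepatocyte transcription factors were lower for 20 of 47 (42.6%, near the 38.6% of all genes) and higher for 5, or 8 with the block. Hnf4a, which maintains hepatocyte identity, was lower by -1.08 ± 0.25 (limma adjusted p = 0.0125) with overlapping libraries, and Nr1d1, a clock repressor, was higher by 1.23 ± 0.21 (limma adjusted p = 0.00483) without overlap. RNA polymerase II and Mediator genes were higher for 11 and lower for 11 of 48 (22.9% each, against 20.7% and 38.6% of all genes), or higher for 20 after quantile normalization, and their median lay 0.51 above that of all genes. Among them were Polr2g at 2.21 ± 0.28 (limma adjusted p = 0.00204) and Polr2m at -2.61 ± 0.20 (limma adjusted p = 0.000949). Chromatin remodelers and histone modifiers were 12 higher and 11 lower of 58 (20.7% and 19.0%, the former as over all genes), or 19 and 25 with the block and 19 and 7 after quantile normalization. Smarcd2 was higher by 1.07 ± 0.34 (limma adjusted p = 0.0367) and Kat2b lower by -2.34 ± 0.20 (limma adjusted p = 0.000983).

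Factors of mRNA decay were higher for 20 of 59 and lower for 18 (33.9% and 30.5%, against 20.7% and 38.6% of all genes). The RNA exosome, which degrades RNA from its 3′ end, was higher for 9 of 12 and lower for none (median 1.21). Argonaute and Tnrc6 proteins, the core of microRNA silencing, were lower for 6 of 7 and higher for none (median -1.32), for example Ago1 at 34.5 and 31.8 TPM in the light zone and 11.6 and 9.23 TPM in the dense zone. The CCR4-NOT and PAN deadenylases were on neither side, with 2 higher, 4 lower and 6 uncalled of 12 (median -0.09). Upf1, the helicase of nonsense-mediated decay, changed by 2.13 ± 0.26 (limma adjusted p = 0.00182) and Ddx6, a decapping helicase, by -0.93 ± 0.20 (limma adjusted p = 0.0101).

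Noncoding RNAs were nearly absent from the higher calls. Of 348 long noncoding RNA genes by annotation, 292 were lower (83.9%) and 5 were higher, with a median of -1.54. Among 24 snoRNA hosts and nuclear long noncoding RNAs, 22 were lower and none was higher (median -2.38). Malat1, a nuclear speckle RNA, had 258 and 512 TPM in the light zone and 17.6 and 23.0 TPM in the dense zone (-4.11 ± 0.36; limma adjusted p = 0.00102), with no overlap. Gas5, a snoRNA host with a TOP tract, and Neat1 changed by -3.75 and -3.18. Small nucleolar and Cajal body RNAs were lower for 46 of 69 (66.7%, against 38.6% of all genes) and higher for none. Only 9 of the 69 had all 8 dense libraries below all 8 light ones. Scarna2 was lower by -1.26 ± 0.44 (limma adjusted p = 0.0487), with overlapping libraries. It was the named gene that missed the threshold under most alternatives.

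RNase P, RNase MRP and related structural RNAs were lower for 10 of 11, with the lowest median of the 50 lists (-4.83). Their summed share was 9.66% and 7.41% of TPM in the light zone and 0.0891% and 0.118% in the dense zone. This share is an arithmetic mean over 4 libraries. In the light zone of gradient 1 it rests mostly on fraction 4, where Rpph1 alone held 249286 TPM. Rpph1 itself changed by -6.17 ± 0.28 (limma adjusted p = 0.000949), from zone levels of 33848 and 35378 TPM to 510 and 454 TPM, and its transcript overlaps Ccnb1ip1. For microRNA loci, whose reads come from precursors or hosts in libraries of this kind, 84 of 136 were lower and 5 were higher. These are 61.8% and 3.68%, against 38.6% and 20.7% of all genes. Only 5 of the 136 had all 8 dense libraries below all 8 light ones, against 29.1% of all genes. Mir6516, which overlaps the snoRNA host Snhg20, changed by -7.37 ± 0.68 (limma adjusted p = 0.00107), with 649 and 836 TPM in the light zone and 8.57 and 1.09 TPM in the dense zone.

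Histone RNAs are short and mostly end in a stem-loop in place of a poly(A) tail. Of 72, 45 were higher and 2 lower (median 1.39). Hist1h4h had 114 and 76.8 TPM in the light zone and 612 and 569 TPM in the dense zone, 2.65 ± 0.26 (limma adjusted p = 0.00119), without overlap. As for complex I and several other lists, the peak lay between the zones, at fraction 11 in gradient 1 and fraction 12 in gradient 2. Cytoskeletal genes were more often higher than lower, 25 against 11 of 56 for actin and myosin and 19 against 8 of 46 for tubulin, kinesin and dynein, or 22 against 5 after quantile normalization. Actb (beta-actin) had 587 and 668 TPM and then 3676 and 3267 TPM (2.47 ± 0.24; limma adjusted p = 0.00122), and Tuba4a changed by 1.54 ± 0.21 (limma adjusted p = 0.00250). Tmsb4x, a small protein that sequesters actin, changed by -2.20 ± 0.22 (limma adjusted p = 0.00124) and the motor gene Kif1c by -1.82 ± 0.23 (limma adjusted p = 0.00190).

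**Figure D4:**
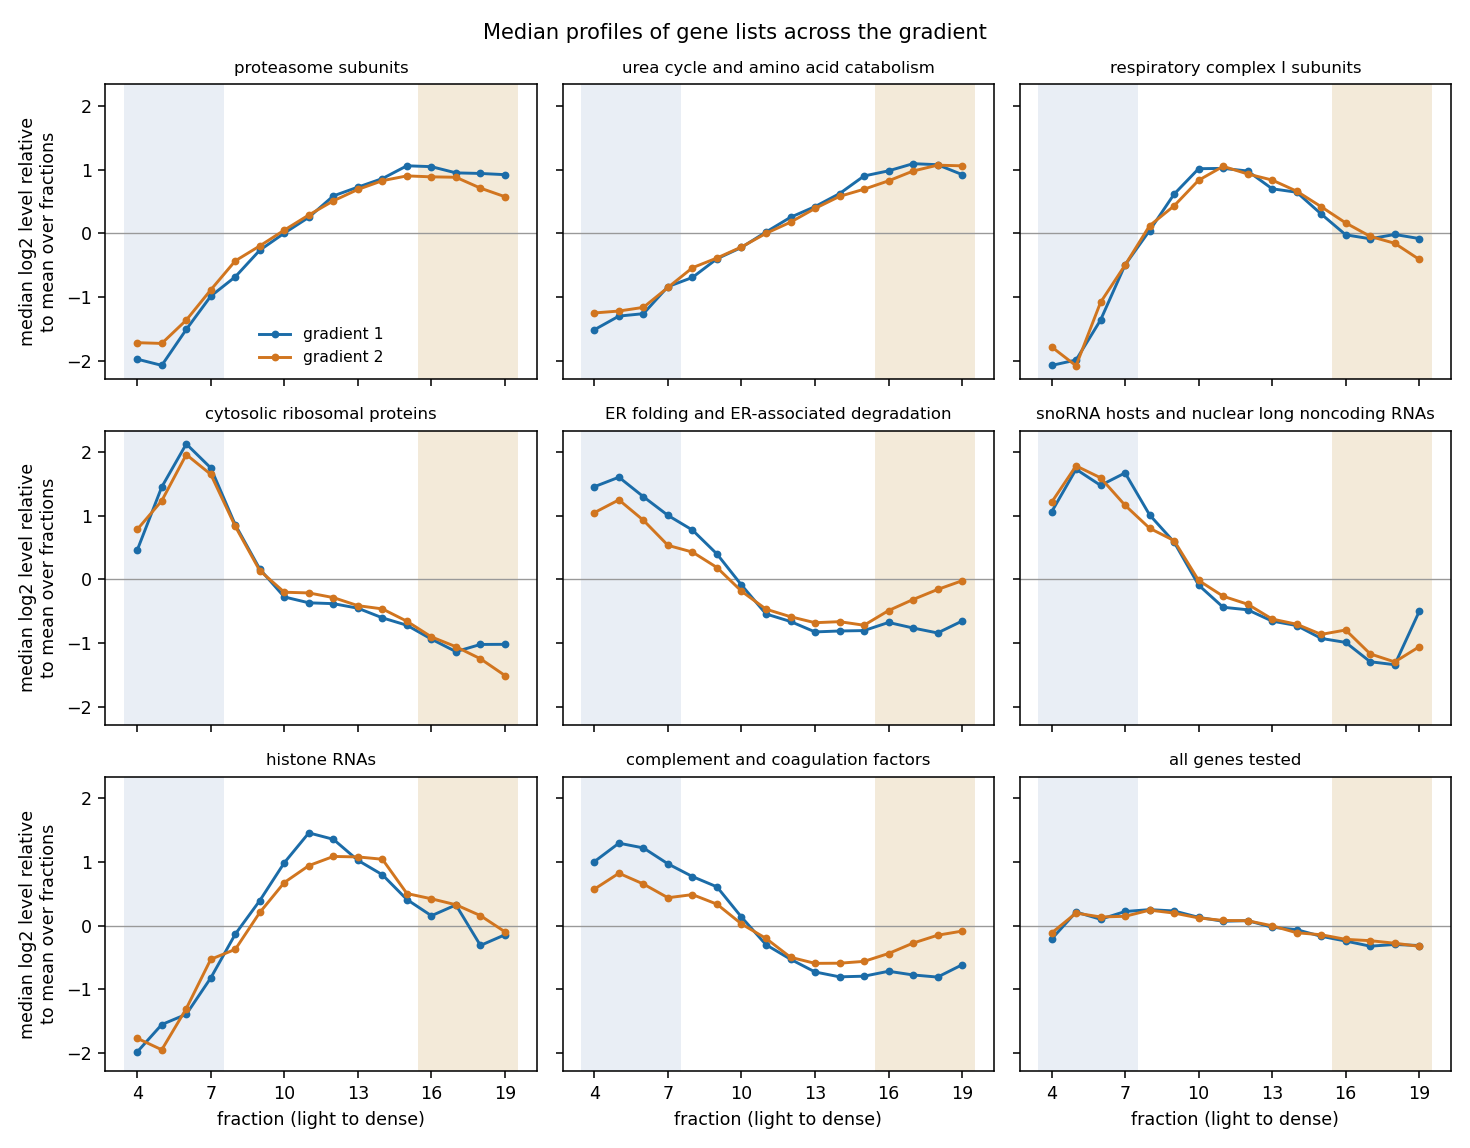
Median log2 level of 8 gene lists and of all genes tested, relative to each gene's mean over fractions 4 to 19, against fraction number from light to dense; blue is gradient 1, orange is gradient 2, and shading marks the light and the dense zone. Ribosomal proteins peak at fraction 6, complex I at fraction 11, histone RNAs at fractions 11 and 12, and the proteasome at fraction 15. From fraction 16 to fraction 19 ER folding and complement genes rise more in gradient 2 than in gradient 1.

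Sequence features that were not used to form the lists separated the genes in the same way. Coding sequences were translated and searched for a hydrophobic stretch near the N terminus, where signal peptides lie, and for a later one, where membrane segments lie. Of 11061 coding genes, the 7282 with neither stretch had a median change of -0.01, with 26.9% higher and 28.1% lower. The 2048 with a later stretch only had a median of -0.58. The 849 with an N-terminal stretch only had a median of -1.14 (6.83% higher and 55.5% lower), and the 882 with both had -1.37 (1.59% higher and 71.5% lower). The gradation was also present in genes that belong to none of the lists, with medians of -0.04, -0.60, -1.07 and -1.33 in the same order. Within lists, serpins with an N-terminal stretch were lower for 17 of 20 and higher for none, and those without were higher for 3 of 10 and lower for 1. ER-Golgi traffic genes with the stretch were lower for 10 of 11, and those without were higher for 14 of 33 and lower for 10. Other lists did not divide this way: solute carriers of the plasma membrane were lower for 27 of 43 with the stretch and for 41 of 45 without it, and lysosomal genes and ABC transporters without it were lower for 5 of 8 and 13 of 23. The stretch was a hydropathy threshold, not a predicted signal peptide, and it marks some proteins of the cytosol and mitochondria as well.

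Transcript architecture went with the change too. Genes were divided by the length of the 3′ UTR into 10 groups of about equal size. The shortest group, up to 147 nucleotides, had a median change of 0.05, with 33.8% of genes higher and 28.7% lower. The median was at its highest, 0.33, for lengths of 148 to 276 nucleotides, where 38.6% were higher, then declined from group to group, and was -1.14 in the group from 3288 nucleotides up, where 6.87% were higher and 61.8% lower. The gradation was present within each hydropathy class: with each class divided into 4 groups, the median went from the shortest to the longest group from 0.57 to -0.68 without any stretch and from -0.97 to -1.73 with both. Over the 11061 genes the Spearman rho of change and 3′ UTR length was -0.30. It was -0.11 for 5′ UTR length, -0.16 for the length of the coding transcript, 0.09 for coding length and 0.16 for the number of coding exons. These are descriptions over genes that share libraries. Abundance moved with the change as well. Of 10 groups by mean TPM the most abundant had a median change of 0.64 and the least abundant -0.79. The ribosomal protein class went against this, with a median 3′ UTR of 90 nucleotides and a median change of -2.45. Histone RNAs, with a median 3′ UTR of 112 nucleotides, were on the other side at 1.39. Which of these features carries the association was not tested.

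**Figure D5:**
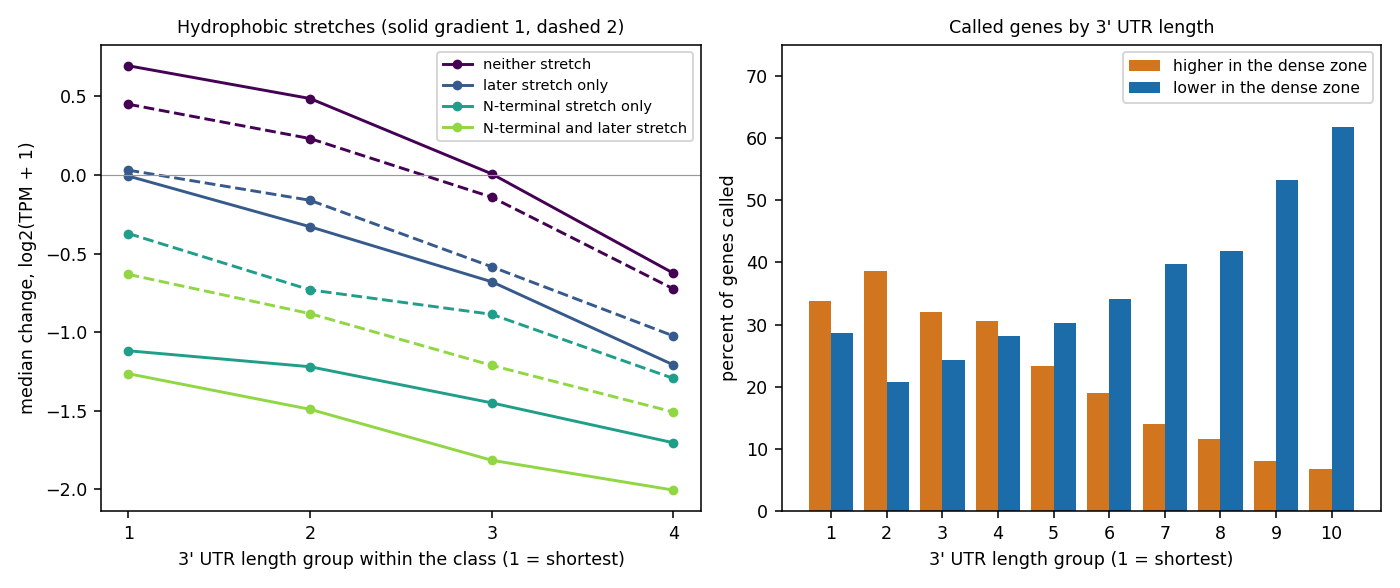
Left, median change (log2(TPM + 1)) by group of 3′ UTR length (4 per class, shortest first) within each class of hydrophobic stretch, solid for gradient 1 and dashed for gradient 2; right, percent of coding genes higher (orange) and lower (blue) in the dense zone in 10 groups of 3′ UTR length, shortest first. Every line descends from the shortest to the longest group, and the share called lower exceeds the share called higher from group 5 on.

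The 2 gradients differed in one respect that followed gene class. For secreted plasma proteins 136 of 153 genes (88.9%), and for ER and membrane genes 342 of 386 (88.6%), had a lower change in gradient 1 than in gradient 2, against 42.5% of all genes. In ER folding this held for 40 of 40 genes, in carboxylesterases for 13 of 13 and in apolipoproteins for 16 of 16. For the proteasome it held for 1 of 42 and for the TCA cycle for 2 of 18. The median difference between gradients was 0.94 log2 units for secreted proteins and 0.78 for ER and membrane genes, and -0.07 for all genes. In profile, the ER folding list was at -0.67 and -0.65 relative to its mean in fractions 16 and 19 of gradient 1, and went from -0.49 to -0.02 over the same fractions of gradient 2. With 1 gradient per mouse, mouse and gradient run cannot be told apart, and this difference was not tested.

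Markers of the cell types of liver were read as a check of the tissue. Hepatocyte markers held 7.61% and 6.14% of TPM in the light zone and 2.17% and 3.82% in the dense zone, with 3 of 13 higher and 7 lower. The higher ones include Cps1 (2.12) and Ass1 of the urea cycle. The lower ones include the secreted Alb and Serpina1b, but also Cyp2e1 of the ER (-2.45) and the transcription factor Hnf4a (-1.08). Kupffer cell and macrophage markers were at 0.0370% and 0.0344% in the light zone and 0.0183% and 0.0236% in the dense zone, with 7 of 14 lower, against 38.6% of all genes, or 4 after quantile normalization, near the 27.6% of all genes on that scale. Sinusoidal endothelial markers were lower for 11 of 12, or 5 after quantile normalization (0.0186% and 0.0135% against 0.00669% and 0.00578%), stellate cell and fibroblast markers for 6 of 9 (3 after quantile normalization) with 1 higher, and globin and erythroid markers for 4 of 5. None of the 3 cholangiocyte markers tested was called, and the 1 lymphocyte marker tested was lower. Most of these markers encode secreted or membrane proteins. Both zones of a gradient came from 1 homogenate, so these values compare zones and not numbers of cells. Their part in the differences above was not tested.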

How the data were processed

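The authors pseudoaligned the reads of each fraction with Kallisto to a mm10 RefSeq transcriptome and deposited 1 table of TPM per gradient, as the submitters' processing notes and the study's methods give it. The Kallisto version and its strand setting are not given in the sources used here. Read counts cannot be recovered from TPM, so depth is unknown. Of 39 libraries 16 were used, 4 per zone and gradient. A zone level is the mean of log2(TPM + 1) over its 4 fractions, and where printed as TPM it was converted back. Zones were compared over the 2 gradients with limma 3.58.1 in R 4.3.3 (trend, no block, Benjamini-Hochberg threshold 0.05), after a test on simulated data. A fold change on this scale understates that of low genes. Both zones of a gradient come from 1 mouse, so numbers pair the samples. Gradient deviations in the 2 zones correlated over genes (r = 0.54), and the block is given where it changes a count of at least 5 genes by over 1.5 times. Smaller counts that it moved by 1 or 2 genes are not repeated.

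Members and gene lists were chosen with earlier results of these data known. Genes were named by a fixed rule: per list, the most abundant called member in the direction most called members took, also the most abundant of the others where at least 1 in 5 called went the other way, plus the study's example genes. Some genes that the rule names are not reported here. Genes named beyond it were chosen after their values were seen. Symbols were matched to GENCODE M21 (12831 directly, 234 by an older symbol, 165 not). Hydropathy used Kyte-Doolittle means of translated coding sequences: 11 residues starting at residues 2 to 25 with a mean of at least 2.0, or 19 residues after residue 40 with at least 1.6. Tables were handled with pandas 2.3.3 and NumPy 2.4.6 under Python 3.11.15, correlations with SciPy 1.17.1 and figures with Matplotlib 3.10.9.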

Additional observations from a re-analysis of the deposited data

Results flagged for a closer look

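For each of the 69 named genes, for the number of genes over 1 TPM and for the share of TPM in the top 50 genes, the 8 libraries of each zone were searched for a value far from the other 7. Of 142 groups 9 had one, and chance alone gives about 1 in 20. The 8 libraries of a zone are successive fractions, not replicates, so a trend along the gradient can also set 1 apart. In gradient 1, Mup14 was at 0.0733 TPM in fraction 4 (others 50.0 to 361 TPM), Psmc5 at 33.4 TPM in fraction 5 (53.5 to 75 TPM), Mup6 at 0.193 TPM in fraction 18 (5.99 to 28.9 TPM), Nr1d1 at 155 TPM in fraction 19 (213 to 255 TPM) and Rpph1 at 1409 TPM in fraction 19 (354 to 570 TPM). In gradient 2, fraction 19 stood apart for 4 genes. Abcb4 was at 34.3 TPM there (22.4 to 27.4 TPM), Atp5b at 3515 TPM (3984 to 4429 TPM), Mrpl24 at 208 TPM (288 to 356 TPM) and Polr2g at 46.6 TPM (71.5 to 103 TPM). Mup6 and Mup14 are members of a family of near-identical genes, so reads may have moved between copies, and this was not tested.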

How the results depend on the processing

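Under 20 alternatives, 2 of them added after seeing the data (protein-coding genes only, and a light zone of fractions 5 to 7), 48 of 69 named genes kept their call in each, and 13 lost it only where a zone of a gradient was left out. Of the 50 lists, 47 kept their side of the median of all genes. The exceptions were SLC25 carriers (-0.10 with mean TPM of at least 10), translation factors (-0.010 with that filter and -0.014 after quantile normalization) and major urinary proteins (-1.99 to 0.69 over the fits that leave out a zone of a gradient, with 0.14 without the light zone of gradient 2 and 0.69 without the dense zone of gradient 1). With the gradient as a replicate block 3228 genes were higher and 5617 lower, and all calls of the unpaired fit were among them. With mean TPM of at least 10, 2503 genes were lower, and 45.6% of called genes were higher (50.7% after quantile normalization). The median change over all genes was -0.53 with pseudocount 0.1, -0.49 without a filter, -0.17 with mean TPM of at least 10, -0.54 without the 50 most abundant genes, -0.56 without small RNAs, -0.49 with coding genes only, -0.074 after quantile normalization, -0.52 and -0.51 for zones of fractions 5 to 6 and 17 to 18 or 5 to 8 and 15 to 18, -0.53 and -0.34 with gradient 2 shifted to denser or lighter fractions, -0.48 from the log2 of mean TPM and -0.53 with light fractions 5 to 7. The filter tests fewer genes. Other causes were not tested. Leaving out each zone of each gradient in turn gave 1168 to 2971 genes higher, 2383 to 4595 lower and medians of -0.51 to -0.35, with the lone sample assumed to vary like the others. Depth cannot be read from TPM, so which uncalled genes it limits is unknown.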
